A study of Rattus norvegicus with 6 samples.

Results

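Amino acid catabolism was examined through 39 enzymes, chosen by symbol to span the breakdown of tyrosine, tryptophan, histidine, methionine, the branched-chain amino acids, lysine, proline, ornithine, glycine and serine. Transaminases and 2 enzymes of pyrimidine and beta-alanine breakdown completed the list. Of the 39, 38 were found by symbol among 19616 genes, and each of these 38 passed the minimum mean of 0.1 FPKM (fragments counted per kilobase of transcript, scaled to the mapped reads of the library) that left 14864 genes to be tested. Aldh4a1, which acts after proline dehydrogenase in proline oxidation, was not analysed here. The liver degrades most amino acids, whereas the first transamination of the branched-chain amino acids takes place largely in muscle. The carbon skeletons feed gluconeogenesis, ketone bodies or the citric acid cycle, and the nitrogen is passed to the urea cycle. Many of these enzymes are made mainly by hepatocytes, and several respond to feeding, glucagon and glucocorticoids.

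The livers came from male SD rats in 2 groups of 3, with 1 RNA library per rat after removal of ribosomal RNA. The hepatic fibrosis group (FL, rats 2, 5 and 12) had been given CCl4, a solvent that hepatocytes convert to a toxic radical, by intraperitoneal injection. Dosing lasted 5 weeks, with 2 injections in each. A dose was 2 mL per kg of body weight, of which 1 part was CCl4 and 1 part olive oil. Rats 5, 6 and 7 of the control group (CL) were given olive oil only, in matching volume. The age of the rats is not given in the sources used here. The read depth of each library is not given in the sources used here, and FPKM do not carry it, so errors are those between the 3 rats of a group. The 10 hepatocyte markers examined all had values, led by albumin, and summed to 55810, 52935 and 53618 FPKM in the CL rats, so hepatocyte RNA was present in every control library. The same sum was 47206, 47277 and 46514 FPKM in the FL rats. As a share of all FPKM it was 18.0, 15.5 and 17.0% in the CL rats and 15.3, 17.4 and 17.1% in the FL rats, which overlap.

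The scale of comparison matters for these abundant genes. The 10 most abundant genes took 31.5, 36.7 and 35.3% of all FPKM in the CL rats, and 25.6, 23.9 and 23.6% in the FL rats. On FPKM as deposited, the median of all tested genes was 0.29 higher in the FL group on the log2 scale. Each rat was therefore centred. Its median difference from the gene means of the 6 rats, taken over the tested genes on the log2 scale, was subtracted. The median difference of all tested genes was then -0.01. Differences below are FL minus CL on this centred log2(FPKM + 0.1) scale unless stated, with limma's standard error (SE), and FPKM of single rats are as deposited, in the order CL5, CL6, CL7 and FL2, FL5, FL12. A gene was called when its limma p, adjusted by the Benjamini-Hochberg method over all 14864 genes, was under 0.05. In whole tissue, fewer cells of a type and less RNA per cell cannot be told apart.

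Relative to the median of all tested genes, 12 of the 38 enzymes fell in the fibrotic livers and 0 rose: Hgd, Afmid, Kmo, Kynu, Hal, Uroc1, Ahcy, Cbs, Ivd, Gcdh, Prodh and Dpys. Their FL levels were between 36.8% and 66.1% of the CL level. The 12 make up 31.6% of the enzymes, beside 4.78% of all tested genes called lower (711 genes) and 6.98% called higher (1037 genes). At an unadjusted limma p under 0.05, 23 enzymes were lower and 0 were higher, beside 13.6% of all tested genes lower and 15.3% higher. With a change of at least 2-fold required as well, Kynu, Hal and Uroc1 remained, or 3 of 38 enzymes, beside 1.52% of all tested genes lower and 4.61% higher.

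The enzymes are abundant transcripts, and abundant genes as a whole were called lower more often. The mean level over the 6 rats ran from 2.03 FPKM for Sdsl to 616 FPKM for Bhmt, with a median of 44.7 FPKM. Among the 3036 genes that averaged 10 FPKM or more, a comparison chosen after the data were seen, 12.9% were called lower and 4.35% higher. Of the 36 enzymes above that level, 12 were called lower (33.3%) and 0 higher.

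Of the 26 enzymes that did not pass the test, 21 had a difference below 0. The median difference of the 38 enzymes was -0.54, with 33 below 0 and 5 above. It was -0.61 in the 36 enzymes that averaged 10 FPKM or more, beside -0.18 in all genes at that level. Relative to the median of all tested genes, the enzymes' median was -0.53. Centring, rescaling and median scaling move all genes of a rat alike and so leave this value nearly fixed, whereas quantile normalization, which can move it, gave -0.24. With the shift of all genes left in, the enzymes' median was -0.24 as deposited and -0.06 after rescaling to equal sums, a scale on which 19 enzymes were above 0 and 19 below. On FPKM as deposited 6 enzymes were called lower and 0 higher, beside 1.94% of all tested genes lower and 16.9% higher. After rescaling to equal sums, 2 enzymes, Kynu and Uroc1, were called lower, beside 1.28% of all tested genes. Haao and Bckdha were called higher, a share of the 38 below the 26.6% of all tested genes called higher on that scale.

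Separation of the groups was read rat by rat as well. In 25 of 38 enzymes every FL rat lay below every CL rat on the centred scale, and in 0 every FL rat lay above. Among all tested genes 16.9% were separated downwards in this way and 17.8% upwards. On FPKM as deposited, 12 enzymes were separated downwards, beside 4.78% of all tested genes, and 2 upwards (Haao and Bckdha), beside 35.7%. The 25 separated enzymes held the 12 called ones and 13 that did not pass the test.

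**Figure D1:**
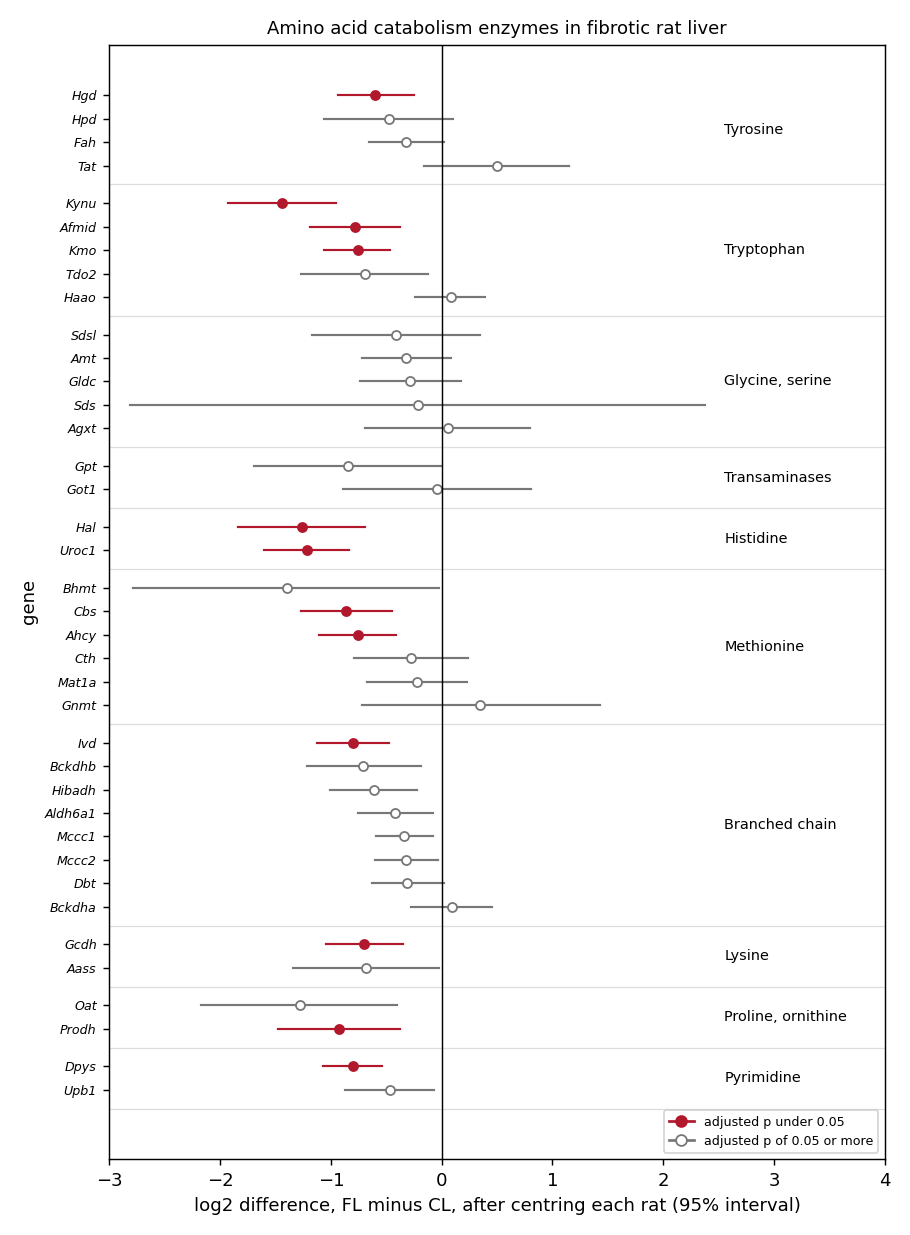
Difference of each of the 38 enzymes between FL and CL rats on the centred log2 scale, grouped by route, with 95% confidence intervals from limma (3 rats per group). Called enzymes are marked, and 33 of 38 points lie below 0, from -1.44 for Kynu to 0.50 for Tat.

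The FL rats were not alike. FL12 held the lowest value of the 6 rats in 23 of the 38 enzymes on FPKM as deposited, FL5 in 5 and FL2 in 4. The median distance of the enzymes from the CL mean was -0.76 in FL12, -0.45 in FL5 and -0.36 in FL2. The CL rats lay close together, at -0.02, -0.01 and 0.02. All 38 enzymes together summed to 3881, 4022 and 3863 FPKM in the CL rats, and to 3325, 3688 and 2622 FPKM in the FL rats. As a share of all FPKM this was 1.25, 1.18 and 1.23% in the CL rats and 1.08, 1.35 and 0.964% in the FL rats, so FL5 lay above every control and the groups overlapped. The median coefficient of variation within a group was 9.45% in the CL rats and 22.1% in the FL rats. Without FL12, 8 enzymes were called lower and the median difference was -0.36. Leaving out a CL rat cost more calls: 5 enzymes were called lower without CL5, 5 without CL6 and 3 without CL7. The median difference was then -0.56, -0.53 and -0.56. Calls among all tested genes dropped in the same fits, from 711 lower to 308, 183 and 171. Without FL5, 10 enzymes and 341 of all tested genes were called lower, and without FL12, 404 of all tested genes. Without FL2, 14 enzymes and 953 of all tested genes were called lower.

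Both histidine enzymes among the 38 fell by more than 2-fold on the centred scale. On FPKM as deposited the falls were under 2-fold, at -0.96 for Hal and -0.92 for Uroc1. Hal (ENSRNOG00000004502, chromosome 7), histidine ammonia-lyase, removes ammonia from histidine to give urocanate. It measured 58.6, 51.1 and 49.0 FPKM in the CL rats, and 22.8, 41.7 and 20.6 FPKM in the FL rats. The groups did not overlap, and FL5 was the nearest to the controls. Hal differed by -1.26 (SE 0.25, adjusted p = 0.0202), or 41.6% of the CL level. The call was lost without CL5 (adjusted p = 0.0697), CL6 (0.0624) or CL7 (0.0678), and after rescaling to equal sums (0.0556), with the difference between -1.55 and -0.79 over all 16 alternatives.

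Uroc1 (ENSRNOG00000043404, chromosome 4), urocanate hydratase, takes the next step. Its levels were 57.2, 68.3 and 65.2 FPKM in the CL rats, against 34.0, 39.8 and 27.6 FPKM in the FL rats. No FL rat reached the lowest control, and FL12 was lowest. The difference was -1.22 (SE 0.16, adjusted p = 0.00752), and Uroc1 stayed past the threshold in 16 of 16 alternatives, at adjusted p between 0.00707 and 0.0388. The next enzyme of the route, imidazolonepropionase (Amdhd1), belongs to the list of other enzymes. It stood at 23.5, 23.5 and 7.52 FPKM in the CL rats, and 5.62, 26.0 and 5.54 FPKM in the FL rats. The groups overlapped, since CL7 was low and FL5 was the highest of all, and Amdhd1 did not pass the test (-1.08, SE 0.65, adjusted p = 0.316). Ftcd, which hands the last carbon of histidine to folate, fell. It had 49.4, 40.4 and 48.7 FPKM in the CL rats, and 33.4, 28.3 and 28.5 FPKM in the FL rats, without overlap (-0.92, SE 0.16, adjusted p = 0.0141). That call was lost without CL5 (adjusted p = 0.0516) or CL7 (0.0599), and after rescaling to equal sums (0.0573).

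Along the tryptophan route, which leads through kynurenine to NAD or to complete oxidation, 3 of 5 enzymes fell and 0 rose. Kynu (ENSRNOG00000029993, chromosome 3), kynureninase, cleaves kynurenine and 3-hydroxykynurenine. It measured 139, 141 and 131 FPKM in the CL rats, and 74.2, 69.2 and 46.7 FPKM in the FL rats. The groups were wide apart and FL12 was lowest. Kynu fell to 36.8% of the CL level (-1.44, SE 0.21, adjusted p = 0.00934). It was called in 16 of 16 alternatives, with adjusted p between 0.00507 and 0.0416.

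Kmo (ENSRNOG00000003709, chromosome 13), kynurenine 3-monooxygenase, acts before Kynu on the branch to NAD. Its FPKM were 31.7, 28.1 and 34.0 in the CL rats, and 22.4, 21.5 and 24.0 in the FL rats. The FL rats were close to each other and below all controls. Kmo differed by -0.76 (SE 0.13, adjusted p = 0.0131), a call lost only without CL7 (adjusted p = 0.0537) and after rescaling to equal sums (0.174) among the 16 alternatives. Afmid (ENSRNOG00000050205, chromosome 10), which hydrolyses formylkynurenine to kynurenine, read 41.7, 49.0 and 41.0 FPKM in the CL rats. It read 22.2, 37.7 and 36.7 FPKM in the FL rats, so FL2 was lowest here and the groups did not overlap. Afmid differed by -0.78 (SE 0.17, adjusted p = 0.0306) and was past the threshold in 6 of 16 alternatives. Without CL5, CL6, CL7 or FL12 its adjusted p was 0.0746, 0.104, 0.0887 and 0.0504. The call also ended on FPKM as deposited (adjusted p = 0.141), after rescaling to equal sums (0.333), after quantile normalization (0.122), without the trend of variance (0.0655), with a pseudocount of 1 (0.0616) and without the minimum level (0.0531).

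The ends of the route did not pass the test. Tdo2, tryptophan 2,3-dioxygenase, which opens the ring of tryptophan and commits it to this route, was at 143 ± 24.2 FPKM in CL and 110 ± 26.6 FPKM in FL (mean ± SD, n = 3). Its difference was -0.69 (SE 0.25, adjusted p = 0.115). Haao, the dioxygenase that follows Kynu, measured 69.8 ± 7.99 FPKM in CL and 90.9 ± 14.8 FPKM in FL (n = 3). On the centred scale Haao differed by 0.08, with a 95% confidence interval from -0.24 to 0.39 (adjusted p = 0.755). After rescaling to equal sums Haao was called higher (0.55, adjusted p = 0.0439), and without FL12 its difference was -0.02. Kynu and Haao, which act one after the other, had intervals that did not meet, as that of Kynu ran from -1.93 to -0.95. The difference between the 2 enzymes was not tested.

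**Figure D2:**
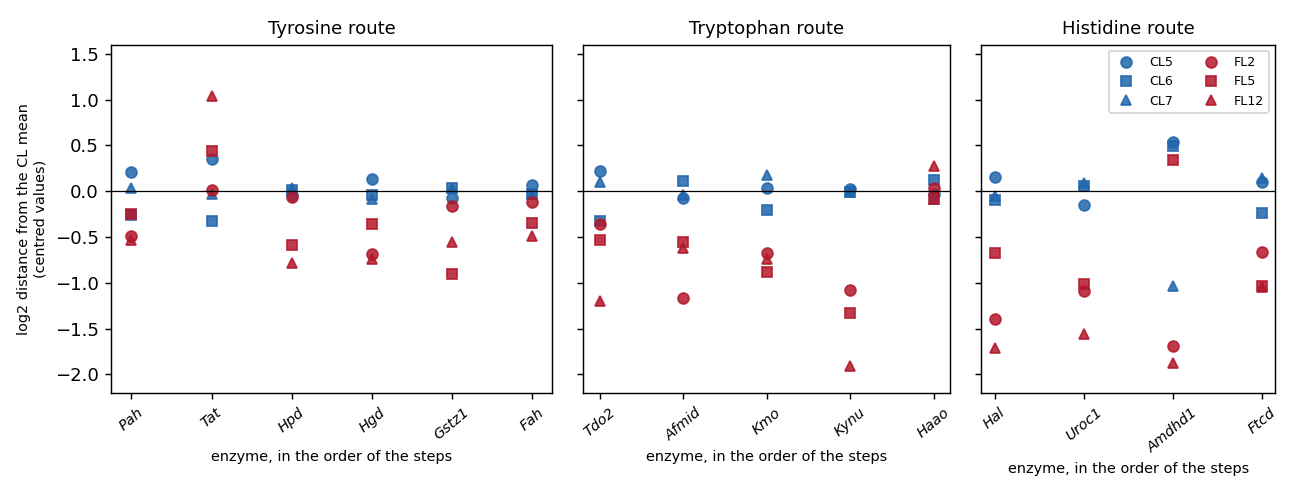
Distance of each rat from the CL mean on the centred log2 scale (vertical axis) for successive enzymes of the tyrosine, tryptophan and histidine routes (horizontal axis), with 1 point per rat. In FL12, Kynu lies at -1.91 and Uroc1 at -1.56, while Haao lies at 0.27 and Tat at 1.04.

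Of the 4 tyrosine enzymes 1 fell and 0 rose. Hgd (ENSRNOG00000002701, chromosome 11), homogentisate 1,2-dioxygenase, which opens the aromatic ring, measured 128, 117 and 105 FPKM in the CL rats. It measured 82.6, 115 and 89.7 FPKM in the FL rats. FL5 lay inside the range of the controls as deposited, while on the centred scale every FL rat was below every control. Hgd differed by -0.60 (SE 0.15, adjusted p = 0.0409) and was past the threshold in 3 of 16 alternatives, with adjusted p between 0.038 and 0.635. The call ended without CL5 (adjusted p = 0.119), CL6 (0.113), CL7 (0.101), FL2 (0.0584) or FL12 (0.104). It also ended on FPKM as deposited (0.221), after rescaling to equal sums (0.635), quantile normalization (0.296) or median scaling (0.0605), without the trend of variance (0.0685), with a pseudocount of 1 (0.0831), without the minimum level (0.0689) and with a minimum of 1 FPKM (0.0517).

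The other tyrosine enzymes gave no call. Tat, tyrosine aminotransferase, is the first enzyme of the route and a classic glucocorticoid-induced gene of liver. It was at 72.4 ± 16.6 FPKM in CL and 131 ± 53.4 FPKM in FL (n = 3), and FL2 lay within the control range. Its difference was 0.50 with a 95% interval from -0.16 to 1.15 (adjusted p = 0.286). Hpd, 4-hydroxyphenylpyruvate dioxygenase, was at 635 ± 26.0 FPKM in CL and 568 ± 114 FPKM in FL (-0.48, adjusted p = 0.251). Without FL2 Hpd passed the threshold (-0.68, adjusted p = 0.0328). Fah, the last enzyme of the route, was at 153 ± 8.12 and 151 ± 11.0 FPKM (-0.32, adjusted p = 0.195).

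Of the 6 enzymes of methionine metabolism and transsulfuration, 2 fell and 0 rose. Ahcy (ENSRNOG00000017777, chromosome 3), which splits S-adenosylhomocysteine to homocysteine and adenosine, measured 244, 252 and 239 FPKM in the CL rats. It measured 172, 203 and 162 FPKM in the FL rats. The controls differed little from each other and all FL rats were lower. Ahcy differed by -0.76 (SE 0.15, adjusted p = 0.0217) and was called in 9 of 16 alternatives. Without CL5, CL6, CL7 or FL12 its adjusted p was 0.0672, 0.0801, 0.085 and 0.0532. It was 0.0642 on FPKM as deposited, 0.207 after rescaling to equal sums and 0.175 after quantile normalization.

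Cbs (ENSRNOG00000029528, chromosome 20), cystathionine beta-synthase, joins homocysteine to serine as the entry to transsulfuration. Its FPKM were 68.3, 60.3 and 59.7 in the CL rats, and 31.3, 44.0 and 55.6 in the FL rats. FL12 was the FL rat closest to the controls for this gene, and the groups did not overlap. Cbs differed by -0.86 (SE 0.18, adjusted p = 0.0233), a call made in 8 of 16 alternatives. It was lost without CL5 (adjusted p = 0.0752), CL6 (0.0649), CL7 (0.0781) or FL5 (0.068), and on FPKM as deposited (0.0906), after rescaling to equal sums (0.236), after quantile normalization (0.106) and without the trend of variance (0.0521). Cth, which cleaves the cystathionine made by Cbs, was at 86.9 ± 7.73 FPKM in CL and 91.0 ± 29.6 FPKM in FL (n = 3) and was not called (-0.28, adjusted p = 0.448).

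Bhmt, which remethylates homocysteine with betaine, had the highest mean FPKM of the 38 enzymes over the 6 rats and differed widely among the FL rats. In the FL group alone its mean, 457 FPKM, lay below that of Hpd, 568 FPKM. Bhmt measured 733, 820 and 774 FPKM in the CL rats, and 441, 797 and 133 FPKM in the FL rats. FL5 lay within the control range as deposited, and the highest FL value was 5.99 times the lowest, against 1.12 times in CL. The difference of -1.40 (SE 0.59) did not pass the test (adjusted p = 0.168). Without FL12 the difference was -0.65 (adjusted p = 0.225). Mat1a, the liver enzyme that makes S-adenosylmethionine, was at 254 ± 3.56 and 270 ± 41.5 FPKM (-0.22, adjusted p = 0.487). Gnmt, which uses S-adenosylmethionine to methylate glycine, was at 4.95 ± 3.31 and 7.17 ± 2.61 FPKM (0.35, adjusted p = 0.655).

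In branched-chain amino acid breakdown, 1 of 8 enzymes fell and 0 rose. That share, 12.5%, lies close to the 12.9% called lower among all genes that averaged 10 FPKM or more, as each of the 8 did. Among all tested genes it was 4.78%. Ivd (ENSRNOG00000009421, chromosome 3), isovaleryl-CoA dehydrogenase of the leucine branch, read 31.9, 36.6 and 31.9 FPKM in the CL rats. It read 26.1, 24.0 and 20.8 FPKM in the FL rats, all below the controls. Ivd differed by -0.80 (SE 0.14, adjusted p = 0.0147) and was called in 13 of 16 alternatives. The exceptions were the fits without CL6 (adjusted p = 0.0596) or CL7 (0.0586) and the one rescaled to equal sums (0.0823). Mccc1 and Mccc2, the subunits of the carboxylase that comes next, differed by -0.34 and -0.32 and were not called.

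The subunits of the branched-chain ketoacid dehydrogenase, the committed step shared by leucine, isoleucine and valine, had unlike values. Bckdha was at 27.9 ± 4.36 FPKM in CL and 36.4 ± 4.24 FPKM in FL (n = 3), a difference of 0.09 (95% interval from -0.28 to 0.45). Bckdhb was at 27.6 ± 3.65 and 21.3 ± 6.03 FPKM, a difference of -0.71 (95% interval from -1.22 to -0.19, adjusted p = 0.083). Dbt, the transacylase subunit, was at 13.8 ± 2.29 and 13.6 ± 0.845 FPKM (-0.31). None of the 3 was called on the centred scale, and their differences from each other were not tested. After rescaling to equal sums Bckdha was called higher (0.57, adjusted p = 0.0192), and without FL2 its difference was -0.06. In the valine branch, Hibadh differed by -0.61 and missed the threshold (adjusted p = 0.0556), with a call when FL2 was left out (-0.70, adjusted p = 0.0373). Aldh6a1, the last enzyme of that branch, differed by -0.42 (adjusted p = 0.111).

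Of the 2 lysine enzymes 1 fell and 0 rose. Gcdh (ENSRNOG00000003307, chromosome 19), glutaryl-CoA dehydrogenase, on the path that lysine and tryptophan breakdown share, was at 94.8, 98.5 and 95.7 FPKM in the CL rats. It was at 73.6, 85.1 and 62.4 FPKM in the FL rats, without overlap and with FL12 lowest. Gcdh differed by -0.70 (SE 0.15, adjusted p = 0.0269), a call made in 9 of 16 alternatives. Without CL5, CL6 or CL7 its adjusted p was 0.0743, 0.087 and 0.0967. It was 0.0858 on FPKM as deposited, 0.292 after rescaling to equal sums, 0.11 after quantile normalization and 0.0529 without the trend of variance. Aass, which starts lysine breakdown, differed by -0.68 (SE 0.28, adjusted p = 0.162). It was called when FL2 was left out (-0.98, adjusted p = 0.0253).

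Proline and ornithine breakdown was covered by 2 measured enzymes, of which 1 fell and 0 rose. Prodh (ENSRNOG00000000281, chromosome 11), proline dehydrogenase, had 18.0, 19.4 and 18.2 FPKM in the CL rats, and 16.4, 8.93 and 11.6 FPKM in the FL rats. All FL rats were below the tight control values, with FL2 nearest to them. Prodh differed by -0.93 (SE 0.24, adjusted p = 0.0451). It was past the threshold in 5 of 16 alternatives, with adjusted p between 0.00512 and 0.129. The call was lost without CL5 (adjusted p = 0.111), CL6 (0.124), CL7 (0.129), FL5 (0.0974) or FL12 (0.11). It was also lost on FPKM as deposited (0.0686), after rescaling to equal sums (0.0894) or quantile normalization (0.0693), without the trend of variance (0.0885), with a pseudocount of 1 (0.0619) and without the minimum level (0.0735).

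Oat, ornithine aminotransferase, measured 32.2, 14.8 and 29.6 FPKM in the CL rats, and 14.02, 16.2 and 7.94 FPKM in the FL rats. CL6 lay among the FL rats as deposited, though not on the centred scale. The difference of -1.28 (SE 0.38) did not pass the test (adjusted p = 0.0696). Without CL6 Oat was called (-1.66, adjusted p = 0.0472).

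Of the 2 enzymes of pyrimidine and beta-alanine breakdown 1 fell and 0 rose. Dpys (ENSRNOG00000004298, chromosome 7), dihydropyrimidinase, measured 101, 102 and 89.6 FPKM in the CL rats. It measured 68.0, 71.8 and 66.6 FPKM in the FL rats. The FL rats were nearly equal and all lay below the controls. Dpys differed by -0.80 (SE 0.11, adjusted p = 0.00898) and was called in 15 of 16 alternatives, the exception being the rescaling to equal sums (-0.32, adjusted p = 0.107). Upb1, the beta-ureidopropionase that acts after Dpys, was at 141 ± 24.4 FPKM in CL and 125 ± 19.5 FPKM in FL (-0.47, adjusted p = 0.118).

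**Figure D3:**
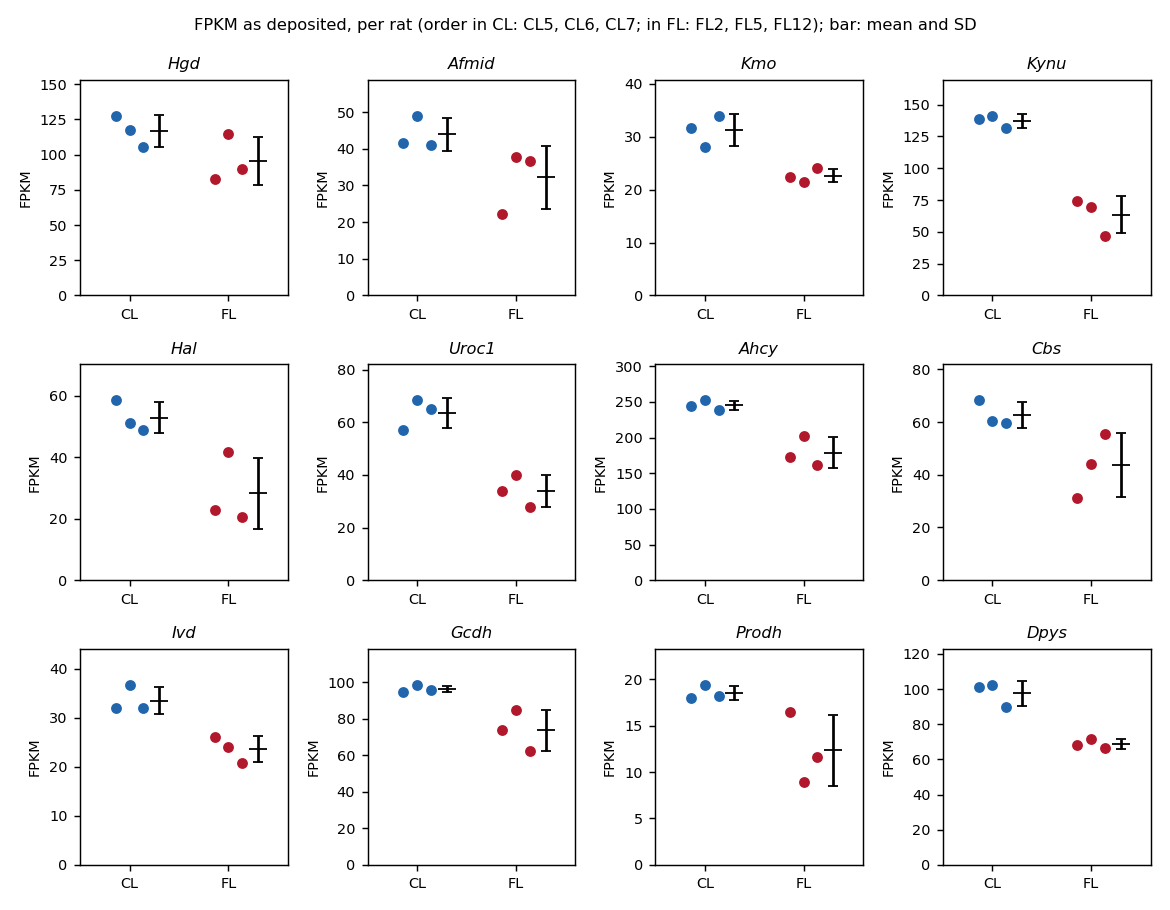
FPKM as deposited of the 12 called enzymes in each CL and FL rat (points), with the mean and SD of each group of 3. In 11 of the 12 the groups do not overlap, and in Hgd the value of FL5, 115, lies within the CL range.

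Glycine and serine breakdown gave 0 calls in either direction among 5 enzymes, with 0 also at an unadjusted limma p under 0.05. Sdsl, a relative of serine dehydratase, had the largest difference on the log2 scale of the 5. It stood at 1.94, 2.84 and 1.53 FPKM in the CL rats, and 2.31, 2.41 and 1.18 FPKM in the FL rats. The groups overlapped (-0.41, SE 0.33, adjusted p = 0.443). Sds, serine dehydratase, a gene induced by fasting and glucagon, varied more between rats of a group than between groups. The highest CL rat had 15.4 times the FPKM of the lowest, and the highest FL rat 11.8 times, and the difference was -0.21 with an SE of 1.11. Gldc and Amt, which encode parts of the glycine cleavage system, differed by -0.29 and -0.32. Agxt, which transaminates glyoxylate to glycine in the peroxisome, differed by 0.06.

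The 2 transaminases gave 0 calls, with Gpt lower at an unadjusted limma p under 0.05. Gpt, alanine aminotransferase, had 19.3, 19.5 and 19.8 FPKM in the CL rats, and 18.9, 17.6 and 7.13 FPKM in the FL rats. All FL rats lay below the controls, but FL12 alone lay far from them. Gpt differed by -0.85 (SE 0.36) and was not called (adjusted p = 0.173). Got1, the cytosolic aspartate aminotransferase, differed by -0.04 (95% interval from -0.89 to 0.81). Its FPKM ran from 16.6 in FL12 to 46.0 in FL5.

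The called enzymes were spread over the genome. By the chromosomes of the table, the 12 lay on 8 chromosomes and the 38 on 15. Kynu, Ahcy and Ivd were on chromosome 3.

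Other enzymes of the same routes gave more lower than higher calls on the centred scale. Of 61 listed, 59 were tested, and 11 fell: Qdpr, Gcsh, Hao1, Ftcd, Dmgdh, Cdo1, Suox, Acadsb, Mcee, Mut and Dhtkd1. Bcat1 was called higher, but passed the minimum level only through the FL rats. The calls make up 18.6% lower and 1.69% higher, beside 4.78% and 6.98% of all tested genes and 12.9% and 4.35% of those that averaged 10 FPKM or more. The median difference was -0.38, beside -0.54 in the 38 enzymes and -0.01 in all tested genes. On FPKM as deposited the median was -0.08, with 32 below 0 and 27 above, and 5 were called lower and 3 higher, beside 1.94% and 16.9% of all tested genes. After rescaling to equal sums 2 were called lower and 10 higher, beside 1.28% and 26.6%. On both scales the higher calls were a smaller share of the 59 than of all tested genes, and the lower calls a larger one. After quantile normalization 5 were called lower and 2 higher. The difference between the lists was not tested. The number called lower was 2 without CL5, 2 without CL6, 1 without CL7, 5 without FL5 and 18 without FL2. Among all tested genes it was 308, 183, 171, 341 and 953 in the same order.

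Acadsb, the acyl-CoA dehydrogenase of the isoleucine branch, was called in 16 of 16 alternatives. It measured 42.3, 42.1 and 46.4 FPKM in the CL rats, and 27.2, 31.1 and 26.2 FPKM in the FL rats, without overlap (-0.93, SE 0.12, adjusted p = 0.00703). Cdo1, which oxidises cysteine towards taurine and sulfate, had 316, 340 and 370 FPKM in the CL rats, and 242, 171 and 159 FPKM in the FL rats. All FL rats were lower (-1.16, SE 0.23, adjusted p = 0.0218). That call was lost without CL5 (adjusted p = 0.0597), CL6 (0.0718), CL7 (0.0845), FL5 (0.0701) or FL12 (0.0565).

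Bcat1, the cytosolic branched-chain aminotransferase, which healthy hepatocytes express little, lay under the minimum of 0.1 FPKM in every control. It stood at 0.03, 0.08 and 0.01 FPKM in the CL rats, and 0.37, 0.55 and 0.44 FPKM in the FL rats. Since Bcat1 entered the test only through the FL rats, where it is high, its call (1.70, SE 0.34, adjusted p = 0.0231) is given as a description. The call was lost without CL5 (adjusted p = 0.0664), CL6 (0.052), CL7 (0.081), FL5 (0.089) or FL12 (0.0572), and with a pseudocount of 1 (0.29, adjusted p = 0.076). Asrgl1, an asparaginase, stood at 0.64, 0.63 and 1.42 FPKM in the CL rats, and 2.68, 3.05 and 1.42 FPKM in the FL rats. FL12 equalled CL7, and Asrgl1 was not called (1.04, SE 0.40, adjusted p = 0.138).

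Transport and nitrogen disposal were read beside the enzymes. Of 14 amino acid transporters 3 fell and 0 rose on the centred scale, or 21.4% lower, beside 4.78% of all tested genes and 12.9% of those that averaged 10 FPKM or more. The 3 were Slc7a2, a carrier of cationic amino acids (-0.89, adjusted p = 0.0269), Slc25a13, the mitochondrial aspartate and glutamate carrier (-0.77, adjusted p = 0.0411), and Slc6a6, the taurine transporter (-0.68, adjusted p = 0.0235). The median difference of the 14 was -0.23. On FPKM as deposited it was 0.07, with 8 above 0 and 6 below, and 0 transporters were called lower. Without CL5, CL6 or CL7 the adjusted p was 0.0705, 0.0538 and 0.085 for Slc7a2, 0.117, 0.0821 and 0.102 for Slc25a13, and 0.0757, 0.0568 and 0.0846 for Slc6a6. Without FL12 it was 0.0737, 0.1 and 0.0575 in the same order, and without FL5 that of Slc25a13 was 0.116. For Slc7a2, Slc25a13 and Slc6a6 it was 0.0732, 0.0827 and 0.141 on FPKM as deposited, and 0.193, 0.198 and 0.459 after rescaling to equal sums. After quantile normalization it was 0.0973 for Slc7a2 and 0.0587 for Slc25a13, and without the trend of variance 0.0589 and 0.0827. Slc25a13 also lost its call with a pseudocount of 1 (0.0619) and without the minimum level (0.066). At an unadjusted limma p under 0.05, 1 transporter, Slc7a5, was higher (1.11, adjusted p = 0.109), and it was called higher on FPKM as deposited (adjusted p = 0.0469), as were 16.9% of all tested genes. It is named after its values were seen. Of the 6 urea cycle enzymes, Otc, which makes citrulline, fell (-0.78, SE 0.16, adjusted p = 0.0241), and 0 rose, with 0 higher at an unadjusted limma p under 0.05. The 1 lower call makes up 16.7%, beside 4.78% of all tested genes and 12.9% of those that averaged 10 FPKM or more. The call of Otc was lost without CL5 (adjusted p = 0.0774), CL6 (0.0755), CL7 (0.082) or FL5 (0.0585), on FPKM as deposited (0.054), after rescaling to equal sums (0.157) and after quantile normalization (0.0746). The median difference of the 6 was -0.34, and -0.04 as deposited with 3 above 0 and 3 below.

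Calls among markers of liver cell types differed from list to list. Of 10 hepatocyte markers 1 fell (Hnf4a, -0.51, adjusted p = 0.0438, past the threshold in 2 of 16 alternatives), and their median difference was -0.39, or -0.09 on FPKM as deposited. The 1 lower call makes up 10%, beside 4.78% of all tested genes and 12.9% of those that averaged 10 FPKM or more. On the centred scale 6 of the 10 were separated downwards without overlap and 1, Apoa1, upwards, beside 16.9% and 17.8% of all tested genes. As deposited 5 were separated downwards and 2 upwards, beside 4.78% and 35.7% of all tested genes. The 2 were Apoa1 (1126, 1183 and 1136 FPKM in CL, and 1535, 2135 and 2088 FPKM in FL) and Tf (5974, 5824 and 5796 FPKM, and 7746, 7144 and 6943 FPKM). Apoa1 differed by 0.43 (adjusted p = 0.389) and Tf by 0.01 (0.994). Alb, Ttr and Apoa2, with differences of -0.68, -0.94 and -0.86, did not pass the test either. They were called lower without the trend of variance (adjusted p = 0.0286, 0.0286 and 0.0397), and Apoa2 also with the robust prior. These 5 are named here after their values were seen. No hepatocyte marker was called on FPKM as deposited, and after rescaling to equal sums Apoa1 was called higher, as were 26.6% of all tested genes. Of 9 tested markers of stellate cells and myofibroblasts 4 rose (Col1a1, Col3a1, Des and Pdgfrb), beside 6.98% of all tested genes, and 1 was lower at an unadjusted limma p under 0.05. The 10 markers with values summed to 80.9, 89.7 and 80.9 FPKM in the CL rats, and to 198, 540 and 489 FPKM in the FL rats, with Col3a1 most abundant. Of 10 macrophage markers 4 rose (Cd68, Csf1r, Marco and Lyz2), beside the same 6.98%. Their sum was 186, 179 and 177 FPKM in the CL rats, and 395, 390 and 255 FPKM in the FL rats, with C1qc most abundant. Without CL6 or CL7 the calls of Pdgfrb and Csf1r were lost, at adjusted p of up to 0.0554 and 0.061, and that of Marco was lost without CL5, CL6, CL7 or FL5, at up to 0.0779. Calls were also gained. Without FL12, 7 macrophage markers were called higher, with C1qa, C1qb and C1qc added, beside 598 of all tested genes. Without FL2, 6 markers of stellate cells and myofibroblasts were, with Acta2 and Tagln added, beside 1246 of all tested genes.

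The remaining marker lists held fewer calls. On the centred scale 14.3% of cholangiocyte, 25% of lymphocyte and 14.3% of cycling markers were called higher, beside 6.98% of all tested genes. Each 14.3% is 1 gene. Of 7 cholangiocyte markers Spp1 alone rose (4.23, adjusted p = 0.0208), and the median difference of the 7 was 0.04. On FPKM as deposited that median was 0.34. Of the 7, 5 differed by more than 0 and 2 by less, and 2 were higher at an unadjusted limma p under 0.05. Krt7, lower at that limit, differed by -1.12 (adjusted p = 0.159), Krt19 by -0.31 and Epcam by 0.03. The sum, led by Spp1, was 10.3, 16 and 10.9 FPKM in CL and 19.1, 75 and 48.3 FPKM in FL. A change of the list as a whole was not tested. Of 7 endothelial markers 0 passed limma's adjusted test, with 3 higher and 1 lower at an unadjusted p under 0.05 and a median difference of 0.03, and their sum, led by Kdr, was 66.6, 68.0 and 59.7 FPKM in CL and 84.2, 74.0 and 81.3 FPKM in FL. Of 8 tested lymphocyte markers Cd4 and Ptprc rose, and the sum, led by Cd4, was 15.4, 12.9 and 14.1 FPKM in CL and 30.8, 40.3 and 32.6 FPKM in FL. Of 7 cycling markers Mcm2 rose, and the sum, led by Pcna, was 7.73, 8.83 and 7.39 FPKM in CL and 11.0, 27.2 and 26.3 FPKM in FL. The call of Spp1 was lost without CL5, CL7, FL5 or FL12, at adjusted p of up to 0.0758, and that of Mcm2 with any rat but FL2 left out, at up to 0.146. Without FL2, 6 of the 7 cycling markers were called higher (Mki67, Top2a, Ccnb1, Cdk1, Mcm2 and Ccna2), beside 1246 of all tested genes. In the same fit the endothelial marker Vwf was called higher and Kdr lower. No marker was at 0 in all rats. As deposited, the number called higher was 6 for macrophage markers, 2 for endothelial markers (Stab2 and Vwf) and 3 for cycling markers, beside 16.9% of all tested genes. After rescaling to equal sums it was 9, 4 and 3, with 7 for stellate cells and myofibroblasts and 3 each for cholangiocytes and lymphocytes, beside 26.6% of all tested genes. The marker counts were not tested against these shares, and some, such as 3 of 8 lymphocyte markers, lie close to them. Without the trend of variance Marco and Mcm2 were not called. Mcm2 also lost its call with a pseudocount of 1, without the minimum level and after quantile normalization, and was past the threshold in 7 of 16 alternatives. The part of cell composition in the lower enzyme levels was not tested.

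Many of the clock genes examined differed between the groups as well, and several liver enzymes follow the time of day or the last meal. Of 10 genes in the phase of Dbp, 8 were called higher (Dbp, Tef, Nr1d1, Nr1d2, Per2, Per3, Ciart and Bhlhe41), beside 6.98% of all tested genes. Of these, Ciart and Bhlhe41 lay under 0.1 FPKM in every control and passed the minimum only through the FL rats, so their calls are a description. Hlf and Per1 were not called on the centred scale. Of 5 genes in the opposite phase 5 fell (Arntl, Npas2, Clock, Cry1 and Nfil3), beside 4.78% of all tested genes. Clock was not called on FPKM as deposited (adjusted p = 0.0573) or after rescaling to equal sums (0.287). Without the trend of variance Nfil3 (0.0534) and Tef (0.0873) were not called, and Tef was not called after quantile normalization (0.0536) or without the minimum level (0.0519). Dbp stood at 0.46, 0.91 and 0.81 FPKM in the CL rats, and 25.6, 27.1 and 31.8 FPKM in the FL rats, far apart in all rats (4.83, SE 0.22, adjusted p = 0.000294). With 1 rat left out, the calls of Tef (highest adjusted p = 0.148 without CL7), Per2 (0.0773 without CL6) and Nfil3 (0.0781 without CL5) were lost in 5 of 6 fits each. Without CL7 those of Nr1d1 (0.0536), Nr1d2 (0.0534) and Clock (0.0599) were lost, and without FL5 that of Bhlhe41 (0.0528). Bhlhe41 was also not called with a pseudocount of 1 (0.48, adjusted p = 0.0502). The time of day of sampling is not given in the sources used here, and its part in the enzyme levels cannot be told apart from that of the treatment.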

How the data were processed

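RNA-seq of 6 rat livers was used, 3 per group as labelled. The authors aligned reads with TopHat2 and deposited FPKM with 2 decimals, and a human build (GRCh38) is named, so no coordinates are given. The annotation release is not given in the sources used here. Another 2 columns of values were not used. limma 3.58.1 in R 4.3.3 was run with a mean-variance trend on log2(FPKM + 0.1), centred per rat, over genes that averaged 0.1 FPKM or more, with Benjamini-Hochberg adjustment and, where stated, a 2-fold limit. Python 3.11.15 was used for summaries, and the procedure was tested on simulated data. It recovered 31 of 100 genes changed by 1 on the log2 scale and 68 of 100 changed by 2, with 6 false calls among 105. A gene that was not called may therefore still differ. Per-rat FPKM are given for called enzymes and for the largest difference of each route, and for the 6 largest differences among the other enzymes. Alternatives were pseudocounts of 1 and 0.01, no minimum or one of 1 FPKM, no centring, rescaling to a sum of 1000000, quantile normalization, median scaling, no trend, a robust prior, and leaving out each rat. For 3 listed symbols the row was found through RefSeq synonyms. The members and lists were chosen with earlier results of these data known. Total read counts were not used here, so no counting interval is given.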

Additional observations from a re-analysis of the deposited data

How the results depend on the processing

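Kynu and Uroc1 were called lower under all 16 alternatives, and the other 10 called enzymes kept their direction in all 16 but lost the call in at least 1. The number of enzymes called lower was 12, and 6 on FPKM as deposited, 2 after rescaling to equal sums, 6 after quantile normalization, 7 without the trend, and 3 (without CL7) to 14 (without FL2) with 1 rat left out. The number called higher was 0, and 2 after rescaling to equal sums. For all tested genes, 711 were called lower, and 463 without the minimum level, 288 as deposited, 191 after rescaling, 407 without the trend, and 171 to 953 with 1 rat left out. Called higher were 1037, and 2518 as deposited, 3948 after rescaling, and 338 to 1246 with 1 rat left out. The share of higher among all calls was 59.3%, and 89.7% as deposited, 95.4% after rescaling and 70.9% after median scaling.

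Of the other enzymes 11 were called lower, and 7 with a pseudocount of 1, 7 without the minimum level, 5 as deposited, 2 after rescaling, 5 after quantile normalization, 4 without the trend, and 1 to 18 with 1 rat left out. Called higher was 1, and 0 with a pseudocount of 1, 0 with a mean of at least 1 FPKM, 3 as deposited, 10 after rescaling, 2 after quantile normalization, and 0 to 1 with 1 rat left out. Urea cycle enzymes called lower were 1, and 0 as deposited, 0 after rescaling, 0 after quantile normalization, and 0 to 1 with 1 rat left out. Transporters called lower were 3, and 0 as deposited, 0 after rescaling, 1 after quantile normalization, 1 without the trend, and 0 to 3 with 1 rat left out. Transporters called higher were 0, and 1 as deposited and 1 after rescaling. The median difference of the enzymes was -0.54, and -0.24 as deposited, -0.06 after rescaling, -0.28 after quantile normalization, and -0.67 (without FL5) to -0.36 (without FL12) with 1 rat left out.

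Signs turned only in enzymes that were not called. After rescaling the differences were 0.00 for Hpd, 0.16 for Fah, 0.19 for Gldc, 0.15 for Amt, 0.27 for Sds, 0.06 for Sdsl, 0.44 for Got1, 0.26 for Mat1a, 0.20 for Cth, 0.17 for Dbt, 0.14 for Mccc1, 0.16 for Mccc2, 0.06 for Aldh6a1 and 0.01 for Upb1. After quantile normalization they were 0.02 for Hpd, 0.06 for Fah, 0.12 for Got1, 0.16 for Mat1a and 0.03 for Cth. As deposited they were 0.01 for Gldc, 0.09 for Sds, 0.26 for Got1, 0.08 for Mat1a and 0.02 for Cth. Got1 was 0.04 after median scaling, 0.06 with a pseudocount of 1, 0.00 without the minimum level and 0.01 with a mean of at least 1 FPKM. With 1 rat left out, Haao was -0.02 (FL12), Sds 0.72 (CL7) and 0.71 (FL12) with a lowest value of -1.23, Agxt -0.00 (CL5), -0.01 (CL6) and -0.31 (FL2) with a highest of 0.38, Got1 0.18 (CL7) and 0.33 (FL12) with a lowest of -0.41, Gnmt -0.01 (CL7) with a highest of 0.83, and Bckdha -0.06 (FL2). The shifts as deposited and after rescaling follow the median of all genes, 0.29 and 0.48 there; other causes were not tested.

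No paired analysis was made, because the rats were assigned to the 2 groups at random and the design holds no pairs. The depth of each library is not given in the sources used here, and 3 rats per group limit the precision.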
